A study of Homo sapiens with 8 samples.

Results

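Described here are 10 genes tied to the transcription factor ATF4 and to serine synthesis, matched by gene symbol. The rule uses no measured value, but the list was drawn up with earlier results of these data known. They are ATF4, ATF5, ASNS, PHGDH, PSAT1, PSPH, SHMT2, TRIB3, SESN2 and CHAC1, and each matched 1 of the 30434 genes in the deposited count table. The study measured RNA by sequencing in SKBR3 cells, an established line from a human breast cancer with an amplified ERBB2 (HER2) gene, and asked what FOXA1, a pioneer transcription factor of luminal breast cells, does for HER2-related pathways. The control group is 4 libraries labelled SKBR3 with the genotype WT. The other group is 4 libraries labelled FOXA1 knockdown, from SKBR3 cells that stably express short hairpin RNAs against FOXA1, 3 of them, delivered by lentivirus. Both groups grew in DMEM with GlutaMAX and fetal bovine serum. Whether the control cells carried a control vector, whether the knockdown line was a single clone and whether replicates were separate cultures are not given in the sources used here, so the p-values below measure the spread between these libraries, which may be technical.

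ATF4 is a basic leucine zipper (bZIP) factor of the integrated stress response. Kinases that sense amino acid shortage, unfolded proteins in the endoplasmic reticulum (ER), viral RNA or haem deficiency phosphorylate the translation factor eIF2, general protein synthesis slows, and ATF4 mRNA is then translated more efficiently, so that the amount of ATF4 mRNA alone does not give the amount of ATF4 protein. ATF4 turns on genes for amino acid supply, among them the serine pathway: PHGDH, PSAT1 and PSPH convert a glycolytic intermediate to serine in that order, and SHMT2 converts serine to glycine in mitochondria and passes a carbon unit to folate. DMEM as formulated supplies serine and glycine but no asparagine, the product of ASNS.

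ATF4 binds, with C/EBP family partners, to a composite element whose core is written here as TGATGNAA. This sequence and its reverse complement TTNCATCA were looked for in RefSeq promoter windows of 300 bases (250 before to 50 after a transcription start, GRCh38.p14). The table held 14 windows for 8 of the members, and 2 of these 14 windows had a match, 1 for ASNS and 1 for CHAC1, while 3.62% of all 35116 windows had one. These upstream sequences are shown because both genes carry the same element and their RNA moved in opposite directions, as described below. They run 5′ to 3′ on the strand of the gene, end at the base before the start, and have the match in capitals.
ASNS, chr7:97872409-97872658, minus strand: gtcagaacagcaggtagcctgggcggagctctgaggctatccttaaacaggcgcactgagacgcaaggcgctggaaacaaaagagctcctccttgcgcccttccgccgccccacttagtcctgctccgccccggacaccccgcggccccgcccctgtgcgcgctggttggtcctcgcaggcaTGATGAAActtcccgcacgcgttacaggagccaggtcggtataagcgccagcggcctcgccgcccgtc
CHAC1, chr15:40953221-40953470, plus strand: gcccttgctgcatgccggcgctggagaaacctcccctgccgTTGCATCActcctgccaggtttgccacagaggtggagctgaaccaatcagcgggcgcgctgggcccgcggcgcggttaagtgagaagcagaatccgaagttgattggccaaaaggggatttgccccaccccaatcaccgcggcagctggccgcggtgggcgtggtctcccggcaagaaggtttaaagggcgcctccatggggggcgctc
The first base of the match lay 68 bases before the start in ASNS and 209 bases before it in CHAC1, where it read in the reverse direction. The forkhead motif TGTTTAC, searched on both strands in the same windows, had no match in the 14 windows of members and was present in 3.42% of all windows. A match is a string of letters in a window and is not evidence of binding.

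The libraries held 19087878 to 23786684 counts, and 3 counts corresponded to at most 0.153 CPM (counts per 1000000 after scaling). Where 4 values are given for a group, they follow the replicate numbers. Pearson correlations of log2 CPM across genes were at least 0.990 within a group and at most 0.715 between groups, and no 2 libraries were identical. FOXA1 fell in all 4 knockdown libraries, from 191.7 ± 1.65 to 3.96 ± 0.340 CPM (SD, n = 4 each; a log2 change of -5.60, SE 0.063, adjusted p = 3.19e-30 by edgeR), so the labels hold for the targeted gene. The summed level of 7 epithelial and ERBB2-region markers was 18640 to 20755 CPM in control and 11609 to 12505 CPM in knockdown. Of these, ERBB2, GRB7, KRT7 and KRT19 fell, ERBB2 from 7308 to 1340 CPM on average, and EPCAM, KRT8 and KRT18 rose. Fibroblast markers summed to 5.27 to 6.98 CPM in control and 10.8 to 12.0 CPM in knockdown, leukocyte markers to at most 1.80 CPM and endothelial markers to at most 22.4 CPM in any library. Of the fibroblast markers, COL3A1 had at most 1 count in control and 90 to 104 in knockdown. PDGFRB likewise rose, from 7 to 12 counts to 43 to 81. COL1A1, which made up most of the control sum, went the other way. It had 103 to 134 counts in control and 79 to 107 in knockdown (5.38 and 4.33 CPM on average). DCN had at most 1 count in any library. The leukocyte marker PTPRC had at most 3 counts and the endothelial marker PECAM1 at most 6. Other markers of those lists were detected: CDH5 had 331 to 478 counts in every library, VWF fell from 105 to 130 counts to 12 to 22, and CD14 rose from 2 to 5 counts to 11 to 13. LUM, CD3E and TYROBP matched no gene of the table. Transcripts of the mitochondrial genome took 0.272% to 0.293% of counts in control and 0.233% to 0.255% in knockdown. The part of these differences in the results below was not tested. In bulk libraries, fewer expressing cells and less RNA per cell cannot be told apart.

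All 10 members passed the filter on low counts and all 10 passed the test (edgeR's quasi-likelihood test, adjusted p under 0.05), 7 higher and 3 lower in knockdown. That count is read against a background in which 77.1% of the 16430 tested genes were called, 39.4% higher and 37.7% lower. The changes were of ordinary size for these libraries: the median absolute log2 fold change of the members was 0.39 against 0.51 over all tested genes, and 7 of the 10 members lay under that all-gene median. Only CHAC1, 1 of the 10, changed 2-fold or more, where 28.3% of all tested genes were called with a change of that size. Control and knockdown CPM stood apart without overlap in 8 of the 10 members, against 72.0% of all tested genes. The exceptions were SHMT2 and TRIB3.

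**Figure D1:**
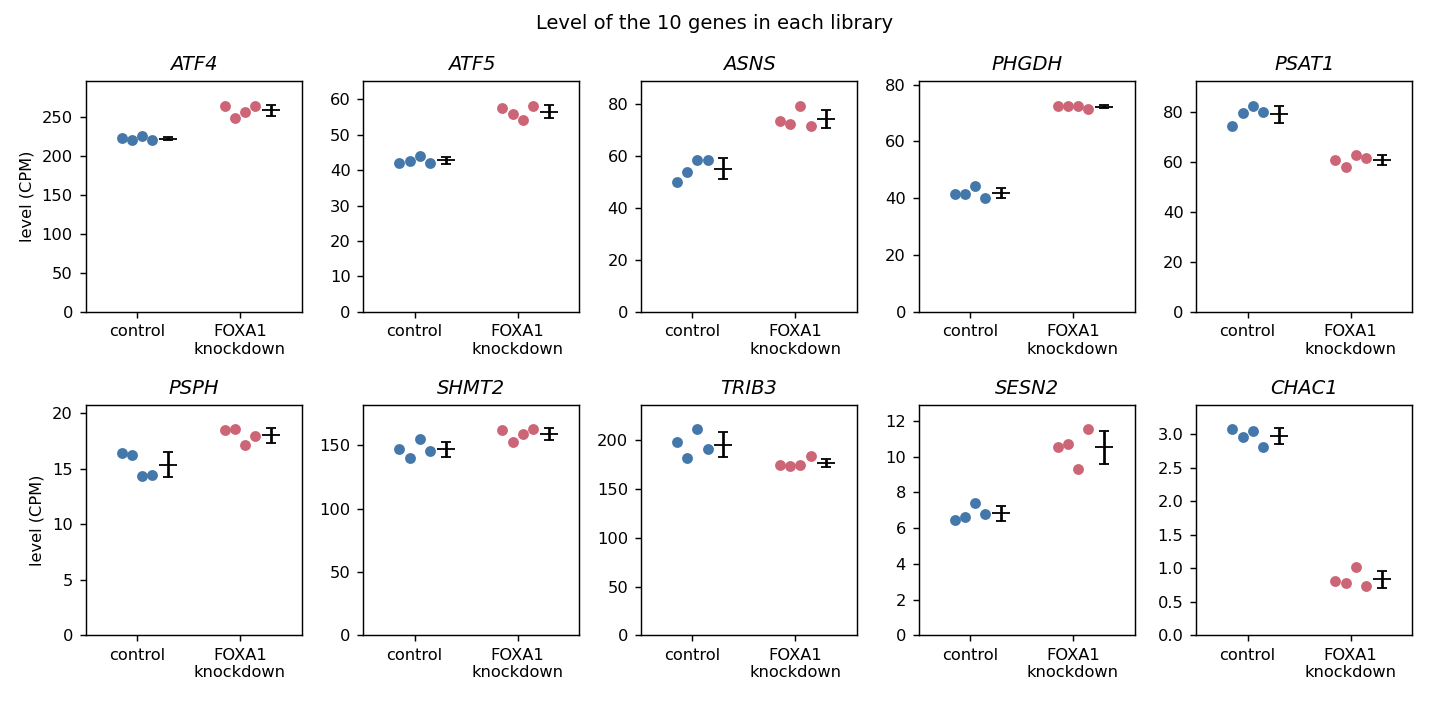
Level of each of the 10 genes in CPM (y axis, linear, from 0) in the 4 control and 4 FOXA1 knockdown libraries. Points are libraries, and the black bar with whiskers is the group mean ± SD; the groups are apart for 8 genes and overlap for SHMT2 and TRIB3.

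Among the transcription factors, ATF4 (ENSG00000128272.15, chromosome 22, 39519695 to 39522685, plus strand; all gene positions are from GENCODE 29 on GRCh38) measured 223.3, 220.6, 225.8 and 221.1 CPM in the controls and 264.3, 249.0, 257.3 and 264.8 CPM in the knockdown libraries. Every knockdown library lay above every control library, by a small margin. The mean went from 222.7 ± 2.36 to 258.9 ± 7.41 CPM (SD, n = 4 each), or 116.3% of control, with a log2 fold change of 0.22 (SE 0.022, adjusted p = 1.57e-06 by edgeR; exact two-sided permutation p = 0.0286, the smallest that 4 against 4 allows). The genes around ATF4 were shifted too: the median log2 fold change of its 50 nearest tested genes on chromosome 22 was 0.29. With that regional shift removed, ATF4 had a log2 fold change of -0.07 (adjusted p = 0.0452 by edgeR), so the direction turned.

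ATF5, a paralogue that is likewise translated more when eIF2 is phosphorylated (ENSG00000169136.12, chromosome 19, 49928702 to 49933935, plus strand), measured 42.1 to 44.1 CPM in the control libraries and 54.3 to 58.2 CPM in the knockdown libraries. The groups did not overlap, and the log2 fold change was 0.40 (SE 0.028, adjusted p = 7.19e-09 by edgeR). Its neighbours had a median of 0.34, and the change of ATF5 over them was 0.07 and was no longer past the threshold (adjusted p = 0.172 by edgeR). ATF5 shares 626 bp of exon with NUP62 on the opposite strand. NUP62 averaged 2967 counts, and the use of strand in counting is not given in the sources used here, so reads of the overlap may be assigned to either gene. The count ratio of ATF4 to ATF5 fell by 0.19 on the log2 scale (SE 0.022), with no overlap of the libraries. Its exact two-sided permutation p was 0.0286, and 0.0286 after Benjamini-Hochberg adjustment over the 11 gene pairs compared. All 11 pairs had this p, the smallest possible, so the adjustment could change nothing. Among single tested genes, 72.0% had groups without overlap.

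PHGDH, which catalyses the first and committed step of serine synthesis (ENSG00000092621.13, chromosome 1, 119648411 to 119744226, plus strand), measured 41.4, 41.5, 44.4 and 40.2 CPM in the controls and 72.4, 72.6, 72.4 and 71.5 CPM in the knockdown libraries. The knockdown libraries were nearly level with each other and far above the controls. PHGDH rose to 172.5% of control (log2 fold change 0.79, SE 0.031, adjusted p = 1.13e-14 by edgeR; n = 4 each, exact two-sided permutation p = 0.0286). Its neighbours on chromosome 1 had a median of 0.09, and with their shift removed the log2 fold change of PHGDH was 0.69.

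PSAT1, the aminotransferase of the next step (ENSG00000135069.14, chromosome 9, 78297143 to 78330093, plus strand), moved the other way. It measured 74.6, 79.6, 82.6 and 80.0 CPM in the controls and 60.7, 57.9, 62.8 and 61.8 CPM in the knockdown libraries. Every knockdown library was below every control library, and the mean fell to 76.8% of control (log2 fold change -0.38, SE 0.040, adjusted p = 1.38e-08 by edgeR; n = 4 each, exact two-sided permutation p = 0.0286).

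PSPH, the phosphatase that releases serine (ENSG00000146733.14, chromosome 7, 56011051 to 56051604, minus strand), measured 14.3 to 16.4 CPM in control and 17.1 to 18.6 CPM in knockdown. The gap between the groups was under 1 CPM, and the log2 fold change was 0.23 (SE 0.059, adjusted p = 0.00267 by edgeR). Its neighbours had a median of -0.17, and with their shift removed the log2 fold change of PSPH was 0.40.

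SHMT2 (ENSG00000182199.11, chromosome 12, 57229327 to 57234935, plus strand) measured 146.8, 140.3, 154.8 and 145.2 CPM in the controls and 162.0, 152.8, 158.8 and 162.5 CPM in the knockdown libraries. Control replicate 3 was above knockdown replicate 2, so the groups overlapped. The log2 fold change of 0.12 (SE 0.036) passed the test across all genes (adjusted p = 0.00673 by edgeR), but not the exact two-sided permutation test on its own CPM (p = 0.0571, n = 4 each). Its neighbours had a median of 0.11, and with their shift removed SHMT2 stood at 0.01 (adjusted p = 0.802 by edgeR). With scaling by library size only the log2 fold change was 0.20.

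The enzymes of serine synthesis therefore did not move as 1 block, and the ratios between them changed by more than the spread between libraries. The log2 count ratio of PHGDH to PSAT1 ran from -0.99 to -0.85 in control and from 0.21 to 0.33 in knockdown. The 2 sets of libraries lay on opposite sides of 0 and were each tight. Counts are not corrected for transcript length, so a ratio of 0 does not mark equal levels. Per kilobase of principal transcript, PHGDH and PSAT1 were level in knockdown, at 27.9 and 27.8 CPM with overlapping ranges. The ratio rose by 1.17 (SE 0.042) on the log2 scale (exact two-sided permutation p = 0.0286, adjusted p = 0.0286 over the 11 pairs). The ratio of PHGDH to PSPH rose by 0.56 (SE 0.073) and that of PSAT1 to PSPH fell by 0.61 (SE 0.093), each without overlap of the groups and with the same exact permutation p. A ratio within a library does not depend on how the library is scaled. The regional shift, however, was not removed from the ratios. With the shift of their neighbours removed, the log2 fold changes of PHGDH and PSPH lay closer together, at 0.69 and 0.40. SHMT1, the cytosolic enzyme that carries out the reaction of SHMT2, rose from 21.3 ± 1.13 to 30.9 ± 1.02 CPM (SD, n = 4 each; a log2 change of 0.53, adjusted p = 1.94e-09 by edgeR), and the ratio of SHMT2 to SHMT1 fell by 0.42 (SE 0.049; exact permutation p = 0.0286). SHMT1 shares 196 bp of exon with SMCR8 on the opposite strand.

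**Figure D2:**
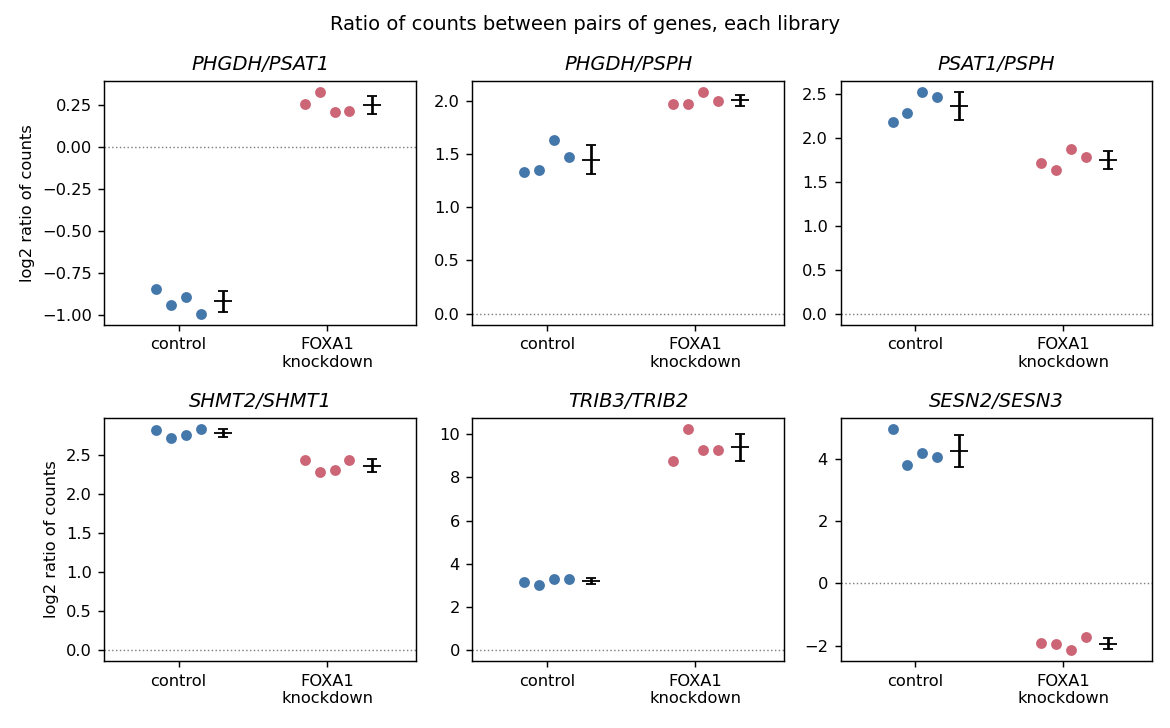
Log2 ratio of counts (y axis, each panel on its own scale; dotted line at 0 where counts are equal) for 6 pairs of genes in each control and FOXA1 knockdown library. Points are libraries and black bars are the mean ± SD; PHGDH to PSAT1 crosses 0 from -0.92 to 0.25, and TRIB3 to TRIB2 and SESN2 to SESN3 move by more than 6. Counts are not corrected for transcript length.

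ASNS, asparagine synthetase and a classic ATF4 target (ENSG00000070669.17, chromosome 7, 97852118 to 97872542, minus strand), measured 50.1, 53.7, 58.4 and 58.4 CPM in the controls and 73.7, 72.3, 79.4 and 71.7 CPM in the knockdown libraries. The groups were well apart, although the controls spread by 3.99 CPM (SD, n = 4) around 55.1. The log2 fold change was 0.43 (SE 0.063, adjusted p = 2.67e-08 by edgeR), and its ratio to ATF4 rose by 0.21 (SE 0.066; exact two-sided permutation p = 0.0286). ASNS shares 1985 bp of exon, on the same strand, with a non-coding transcript entry, AC079781.5, which had 440, 472, 319 and 342 counts in the controls and 255 to 294 in knockdown. The controls with fewer counts for AC079781.5 had more for ASNS. When the 2 entries were summed, an alternative chosen after seeing the data, the controls lay between 70.3 and 75.1 CPM and the knockdown libraries between 83.2 and 92.4 CPM. The log2 fold change was then 0.25 (adjusted p = 7.7e-06 by edgeR), over 1.5 times smaller. That is close to the 0.22 of ATF4. The ratio to ATF4 given above used ASNS alone and was not computed with the summed counts.

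Of the stress-response members, TRIB3, a pseudokinase that ATF4 induces and that binds ATF4 and AKT (ENSG00000101255.11, chromosome 20, 362835 to 397559, plus strand), measured 198.5, 181.4, 211.1 and 191.2 CPM in the controls and 174.7, 174.1, 175.0 and 183.4 CPM in the knockdown libraries. Knockdown replicate 4 overlapped the lowest control. The log2 fold change was -0.15 (SE 0.049, adjusted p = 0.00218 by edgeR; exact two-sided permutation p = 0.0571, n = 4 each). This call did not hold with library size only (log2 fold change -0.06, adjusted p = 0.156 by edgeR), with upper-quartile scaling (-0.09, adjusted p = 0.0646) or with the shift of its neighbours removed (-0.01, adjusted p = 0.868).

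Its paralogues changed far more. TRIB2 had 444 to 489 counts in the control libraries and 3 to 9 in the knockdown libraries, falling from 21.3 ± 1.29 to 0.259 ± 0.107 CPM (SD, n = 4 each; a log2 change of -6.33, adjusted p = 1.43e-22 by edgeR). TRIB1 fell from 43.2 ± 0.783 to 12.3 ± 0.625 CPM (SD, n = 4 each; a log2 change of -1.81, adjusted p = 2.95e-20 by edgeR). The log2 count ratio of TRIB3 rose by 1.67 (SE 0.052) over TRIB1 and by 6.19 (SE 0.32) over TRIB2 (exact two-sided permutation p = 0.0286 for each).

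SESN2, a leucine-binding inhibitor of the growth kinase complex mTORC1 (ENSG00000130766.5, chromosome 1, 28259527 to 28282491, plus strand), measured 6.46, 6.63, 7.41 and 6.81 CPM in the controls and 10.5, 10.7, 9.32 and 11.5 CPM in the knockdown libraries. All knockdown libraries were above all controls, and SESN2 rose to 154.1% of control (log2 fold change 0.63, SE 0.076, adjusted p = 5.03e-07 by edgeR; exact two-sided permutation p = 0.0286, n = 4 each). SESN3, which is known as a FOXO target, had 4 to 10 counts in control and 815 to 1012 in knockdown, or 0.351 CPM ± 0.117 and 40.2 CPM ± 1.61 (SD, n = 4 each; a log2 change of 6.81, adjusted p = 1.89e-25 by edgeR). The log2 count ratio of SESN2 to SESN3 fell by 6.20 (SE 0.27; exact permutation p = 0.0286). SESN3 shares 93 bp of exon with an antisense gene. SESN1, a p53 target in textbook accounts, had a log2 fold change of -0.12 that did not pass the test (adjusted p = 0.214 by edgeR; -0.26 and adjusted p = 0.0082 with the shift of its neighbours removed), and the ratio of SESN2 to SESN1 rose by 0.75 (SE 0.072; exact permutation p = 0.0286).

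CHAC1, an enzyme that degrades glutathione and that ATF4 induces together with ATF3 and DDIT3 (ENSG00000128965.13, chromosome 15, 40952962 to 40956519, plus strand), had 67, 65, 64 and 65 counts in the controls and 19, 19, 20 and 16 in the knockdown libraries. It was among the least abundant members in both groups, and the knockdown libraries were far below the controls. The level fell from 2.965 ± 0.120 to 0.836 ± 0.125 CPM (SD, n = 4 each), 3.55-fold lower (log2 fold change -1.83, SE 0.10, adjusted p = 7.86e-10 by edgeR; exact two-sided permutation p = 0.0286). CHAC1 sits on a part of chromosome 15 whose tested genes were lower, with a median of -0.32 over its 50 nearest; with that shift removed its log2 fold change was -1.51. The paralogue CHAC2, which works at a slower rate, fell by 0.96 on the log2 scale (adjusted p = 6.76e-09 by edgeR), and the ratio of CHAC1 to CHAC2 fell by 0.85 (SE 0.13; exact permutation p = 0.0286).

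**Figure D3:**
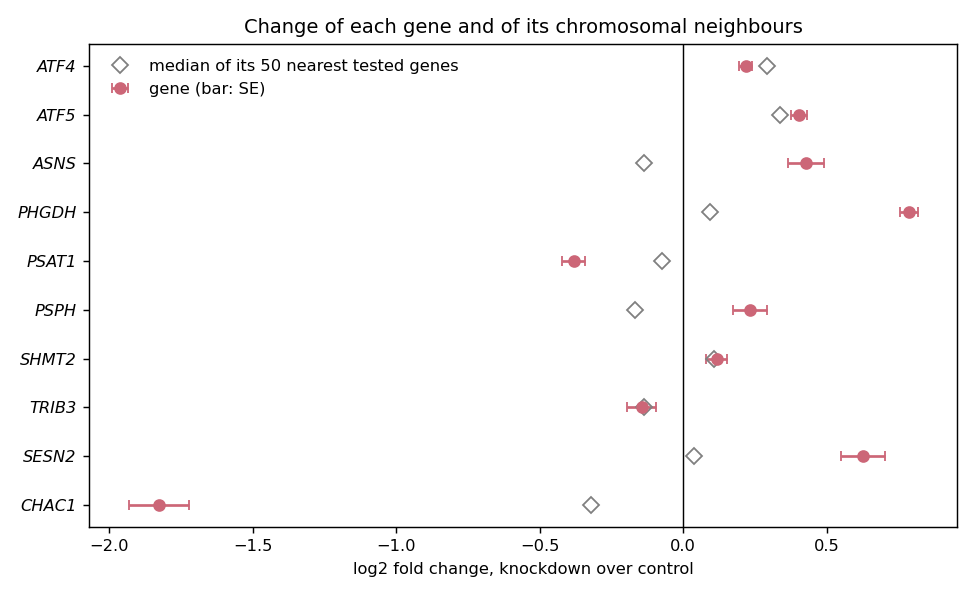
Log2 fold change of each gene in knockdown over control (filled points, bars are the SE) and the median log2 fold change of its 50 nearest tested genes on the chromosome (open diamonds). ATF4, ATF5, SHMT2 and TRIB3 lie close to their neighbours, while PHGDH, ASNS, SESN2, PSAT1, PSPH and CHAC1 lie away from them.

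Levels of different genes were compared per kilobase of principal transcript. In control ATF4 was the highest member at 110.3 CPM per kilobase ± 1.17, followed by TRIB3 at 78.2 ± 5.01, SHMT2 at 57.8 ± 2.37, PSAT1 at 36.2 ± 1.52, ASNS at 23.4 ± 1.69, ATF5 at 20.7 ± 0.445, PHGDH at 16.2 ± 0.689, PSPH at 7.06 ± 0.515, SESN2 at 1.98 ± 0.120 and CHAC1 at 1.901 ± 0.0769 (SD, n = 4 each). Neighbours in that order were apart in every library except ASNS with ATF5 and SESN2 with CHAC1, whose ranges overlapped. In knockdown the first 3 places and the last 3 were held by the same genes, and PHGDH, at 27.9 CPM per kilobase ± 0.193, came level with PSAT1 at 27.8 ± 0.958 and ATF5 at 27.3 ± 0.859 (SD, n = 4 each), with ranges that overlapped from PHGDH to PSAT1 and from PSAT1 to ATF5.

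Among 12419 other genes that averaged 50 counts or more, those whose centred log2 CPM lay nearest to that of ATF4 over the 8 libraries were PDHA1, a subunit of pyruvate dehydrogenase (Euclidean distance 0.0475), BIRC5, which encodes survivin (0.049), and CDK2AP1, an inhibitor of CDK2 (0.0554). With 2 groups of tight replicates this measure mostly finds genes of the same fold change, and theirs were 0.19 to 0.22 on the log2 scale.

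The genes of eIF2 and its control moved in both directions. Of 18 such genes, 11 rose, 6 fell and 1 was not called (EIF2B1, log2 fold change 0.065). The median log2 fold change was 0.13 against 0.02 over all tested genes. Of all tested genes, 39.4% were called higher and 37.7% lower, which is the background for this list and for each list below. The kinase genes were split: EIF2AK4 (GCN2), which senses amino acid shortage, rose from 54.7 CPM ± 1.36 to 98.2 CPM ± 2.22, and EIF2AK3 (PERK), which senses unfolded proteins in the ER, fell from 42.5 ± 2.66 to 26.7 ± 1.34 CPM (SD, n = 4 each). Their log2 fold changes were 0.84 (SE 0.024, adjusted p = 4.19e-16 by edgeR) and -0.67 (SE 0.059, adjusted p = 3.1e-11 by edgeR). The kinases EIF2AK1 (HRI), with a log2 fold change of -0.65 where its neighbours had a median of -0.53, and EIF2AK2 (PKR), with one of 0.30, were named after their values were seen. PPP1R15A (GADD34), the inducible phosphatase subunit that reverses eIF2 phosphorylation, rose from 11.7 ± 0.722 to 25.2 ± 0.332 CPM (SD, n = 4 each; a log2 change of 1.11, adjusted p = 1.28e-14 by edgeR). OMA1, a mitochondrial protease that relays stress to HRI, fell by 0.87 on the log2 scale. With the shift of their neighbours removed, PPP1R15A stood at 0.82, OMA1 at -0.62 and EIF2AK4 at 1.13. In the guanine exchange factor eIF2B, EIF2B3, EIF2B4 and EIF2B5 fell by 0.45, 0.45 and 0.40 on the log2 scale, and EIF2B2 rose by 0.12; these 4 were likewise chosen after their values were seen.

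Of 13 bZIP factors related to ATF4 or able to pair with it, 6 rose, 6 fell and NFE2L2 was not called (log2 fold change 0.05). The C/EBP partners CEBPA and CEBPD had the widest changes of that list. CEBPA had 11 to 17 counts in control and 1049 to 1328 in knockdown, rising from 0.635 ± 0.130 to 54.3 ± 1.48 CPM (SD, n = 4 each; a log2 change of 6.41, adjusted p = 7.62e-27 by edgeR). CEBPD rose by 1.87 (SE 0.043) and CEBPB fell by 0.62 (SE 0.061) on the log2 scale; the fall of CEBPB was -0.34 with the shift of its neighbours removed. ATF6, an ER stress sensor, fell by 0.80 (SE 0.050), and its change was -0.61 with the shift of its neighbours removed. DDIT3 (CHOP) and ATF3, which act beside ATF4 on stress genes and were named after their values were seen, had log2 fold changes of 0.41 and 0.17. DDIT3 shares 355 bp of exon with the methionyl-tRNA synthetase gene on the opposite strand, which had 3367 counts on average against 158 for DDIT3.

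Further stress genes that ATF4 is known to induce diverged widely. Of 17, 16 were tested: 9 rose, 5 fell and 2 (GDF15 and ADM2, log2 fold changes -0.17 and -0.04) were not called, with a median of 0.37. DDIT4 (REDD1), an inhibitor of mTORC1, had 3966 to 4226 counts in the control libraries and 225 to 282 in the knockdown libraries. It fell from 184.5 ± 4.47 to 11.4 ± 0.129 CPM (SD, n = 4 each), 16.1-fold lower (log2 fold change -4.01, adjusted p = 5.33e-29 by edgeR); it shares 847 bp of exon with the antisense gene DDIT4-AS1, which averaged 89.8 counts. NUPR1, a small chromatin protein induced by stress, fell by 2.88 (SE 0.032) on the log2 scale. STC2, a secreted glycoprotein, had at most 1 count in any control library and 596 to 800 in knockdown, at least 222-fold higher when the control is set to 3 counts per library. PMAIP1 (NOXA), a BH3-only protein that promotes cell death, rose from 0.202 ± 0.111 to 14.2 ± 0.986 CPM (SD, n = 4 each; a log2 change of 6.08, adjusted p = 1.12e-20 by edgeR).

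Amino acid transporters moved in both directions. Of 10, 9 were tested, 4 rose and 5 fell, with a median log2 fold change of -0.88. SLC1A5 (ASCT2), which carries neutral amino acids such as glutamine, fell from 387.5 ± 12.9 to 90.0 ± 3.61 CPM (SD, n = 4 each; a log2 change of -2.11, adjusted p = 6.19e-25 by edgeR). SLC1A4 (ASCT1), a carrier of serine and alanine, fell by 1.86 (SE 0.034) on the log2 scale. SLC7A11, the cystine carrier, rose by 0.71 (SE 0.14), and SLC38A2, a sodium-coupled carrier of small neutral amino acids, rose by 0.68 (SE 0.045), or 0.45 with the shift of its neighbours removed. The heavy chain SLC3A2 and its partner SLC7A5 (LAT1), named after their values were seen, fell by 1.37 and 0.88 on the log2 scale.

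Of 12 tRNA synthetase genes that ATF4 is known to raise, 7 rose and 5 fell, with a median log2 fold change of 0.17. Over all tested genes, 39.4% were called higher and 37.7% lower. LARS1 had the largest rise at 0.80 (SE 0.029; 0.28 with the shift of its neighbours removed), followed by WARS1 at 0.42 (SE 0.029). GARS1 had the largest fall at -0.59 (SE 0.028; -0.16 with that shift removed), followed by CARS1 at -0.41 (SE 0.052), which turned to 0.21 with that shift removed. The 8 other cytosolic synthetase genes all rose, with a median of 0.25, but this count did not hold against their neighbours: with the shift removed 1 was called higher and 4 lower. RARS1 went from 0.55 to -0.08 and VARS1 from 0.32 to -0.15 on the log2 scale.

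Of 23 genes of one-carbon and glycine metabolism, 21 were tested: 12 rose, 7 fell and 2 (MTFMT and SRR, log2 fold changes -0.02 and -0.04) were not called, with a median of 0.41. The mitochondrial folate enzymes next to SHMT2 went apart. MTHFD2, an ATF4 target, fell by 0.33 (SE 0.023) and MTHFD1L rose by 2.20 (SE 0.042) on the log2 scale; both were named after their values were seen. ALDH1L2, the mitochondrial formyltetrahydrofolate dehydrogenase, fell from 12.8 ± 1.39 to 1.86 ± 0.159 CPM (SD, n = 4 each; a log2 change of -2.78, adjusted p = 2.16e-17 by edgeR). It shares 145 bp of exon with C12orf45 on the opposite strand, which averaged 749 counts. FPGS, which traps folates in the cell by adding glutamates, fell by 0.77 (SE 0.032; -0.35 with the shift of its neighbours removed).

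In the same list, 2 enzymes that consume serine rose from near 0. SDS, serine dehydratase, had 3 to 7 counts in control and 100 to 130 in knockdown (log2 fold change 4.66, SE 0.21, adjusted p = 1.16e-16 by edgeR). CBS, which joins serine to homocysteine, had 2, 0, 4 and 27 counts in the controls and 606 to 766 in knockdown (log2 fold change 6.32, SE 1.2, adjusted p = 5.28e-06 by edgeR). Its near-identical copy CBSL had 23, 13, 17 and 0 counts in the same controls, so the split of reads between the copies is uncertain. Summed, an alternative chosen after seeing the data, the pair went from 0.974 ± 0.266 to 55.2 ± 1.898 CPM (SD, n = 4 each; a log2 change of 5.81, adjusted p = 8.67e-26 by edgeR).

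Among 18 genes for the synthesis of other amino acids, 8 rose, 6 fell and 4 were not called, with a median log2 fold change of 0.05. BCAT2, a branched-chain aminotransferase, rose by 0.83 (SE 0.048; 0.54 with the shift of its neighbours removed). Its paralogue BCAT1, named after its values were seen, averaged just under 50 counts. BCAT1 had at most 1 count in control and 87 to 118 in knockdown, at least 31.2-fold higher with control set to 3 counts per library. ASL, argininosuccinate lyase, fell by 1.84 (SE 0.030) and GPT2, the mitochondrial alanine aminotransferase, by 1.61 (SE 0.037) on the log2 scale. With the shift of their neighbours removed, ASL stood at -1.31 and GPT2 at -1.39.

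RNA of the genes listed for the other arms of the ER stress response was mostly lower in knockdown. The activity of ATF6 and XBP1 was not measured. Of 15 targets of ATF6 and XBP1, 12 fell, 2 rose and HSP90B1 was not called (843 CPM in both groups), with a median log2 fold change of -0.55. XBP1 itself fell from 687.3 ± 23.1 to 54.9 ± 1.67 CPM (SD, n = 4 each), 12.5-fold lower (log2 fold change -3.65, adjusted p = 1.48e-29 by edgeR). DNAJC3, a co-chaperone that inhibits eIF2 kinases, fell by 1.66 (SE 0.045), and its change was -1.24 with the shift of its neighbours removed. SDF2L1 rose by 0.48 (SE 0.082; 0.24 with the shift of its neighbours removed) and PDIA4 by 0.22 (SE 0.014) on the log2 scale.

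**Figure D4:**
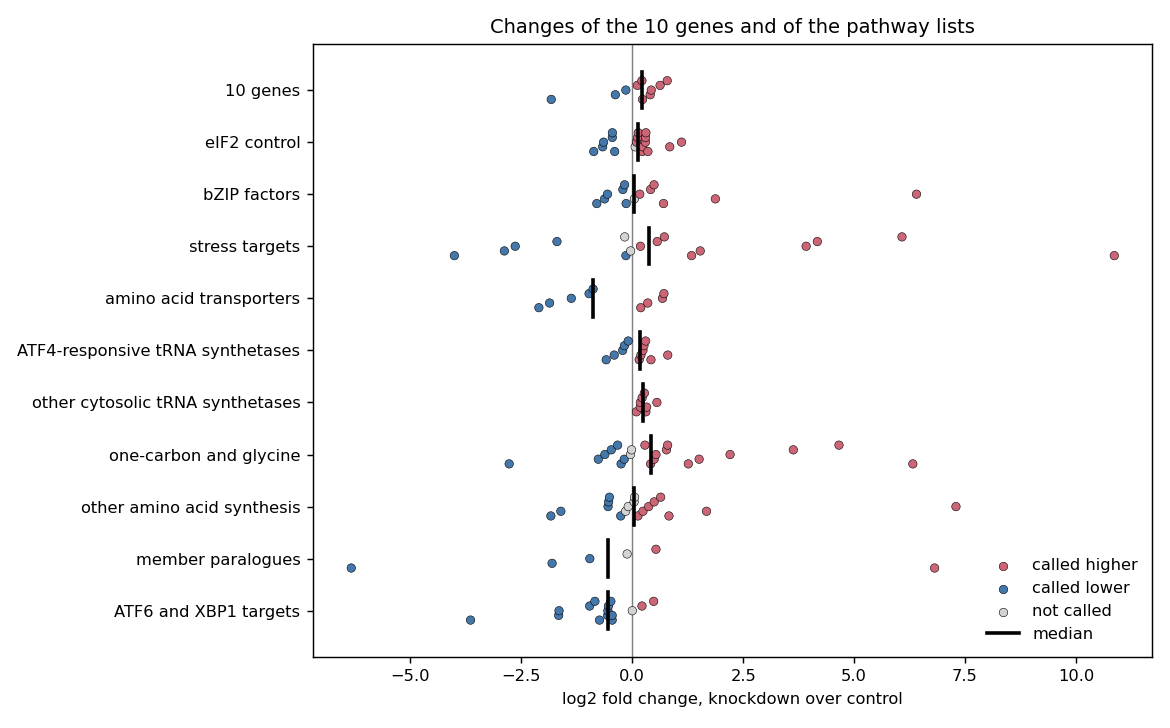
Log2 fold change in knockdown over control (x axis) of each tested gene, for the 10 genes described here and 10 lists of related genes. Red points were called higher, blue lower and gray not called (edgeR, adjusted p under 0.05), and the black bar is the median, which lies between -0.88 for the transporters and 0.41 for one-carbon and glycine genes.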

How the data were processed

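RNA from 4 control and 4 FOXA1 knockdown SKBR3 libraries was extracted with Trizol and sequenced as paired reads of 101 bp on a NextSeq instrument, per the labels' protocols. The authors deposited whole-number counts per gene. The submitters' processing notes name FastQC, Salmon 1.9, DESeq2 3.16 and hg38 without giving their roles, so the counts may be rounded estimates; the annotation release and the use of strand are not given in the sources used here.

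The whole table was tested with edgeR 4.0.16 in R 4.3.3: filterByExpr (minimum count 10, total 15) left 16430 genes and removed 14004, scaling was by TMM, and the quasi-likelihood test was adjusted by Benjamini-Hochberg over all tested genes at 0.05. CPM is a count over the TMM-scaled total. An SE comes from the spread of log2 CPM between libraries, with 0.5 added to counts, as do the SEs of ratios. Single values were tested by exact two-sided permutation over 70 divisions. Floors of 3 counts cover counting error only. The script was tested on simulated data. Positions and transcript lengths are from GENCODE 29 (96.5% of identifiers matched), and promoter sequences from RefSeq.

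The members and lists were chosen with earlier results of these data known. Named genes are the 10 members, FOXA1, the 2 largest rises and 2 largest falls of each list (called, mean of at least 50 counts), the denominators of the ratios and the 3 genes nearest to ATF4; others are marked. A gene chosen this way is not reported here. To remove the regional shift, the median change of a gene's 50 nearest tested genes was entered as an offset on the log2 scale. Other alternatives were other scalings and filters, DESeq2 1.42.0, limma voom 3.58.1, a replicate block and leaving out each library.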

Additional observations from a re-analysis of the deposited data

Results flagged for a closer look

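Of 102 groups of 4 libraries examined, 7 held a library whose gap to its nearest neighbour took a larger share of the group's range than Dixon's 95% critical value. Chance flags about 1 in 20 groups, which is 5.1 of 102. TRIB3 was high in knockdown replicate 4, at 183.4 CPM against 174.1 to 175.0 in the other 3. STC2 had 1 count in control replicate 4 (0.0431 CPM) and 0 in the other controls. SLC7A11 was low in control replicate 3, at 5.32 CPM against 7.60 to 7.81. SLC1A5 was high in knockdown replicate 1, at 95.4 CPM against 87.8 to 88.5. SLC1A4 was low in control replicate 4, at 19.7 CPM against 20.06 to 20.13. CBS was high in control replicate 4, at 1.16 CPM against 0 to 0.190, and its copy CBSL had 0 counts in that library. GPT2 was high in control replicate 3, at 127.5 CPM against 115.0 to 117.0.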

How the results depend on the processing

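PHGDH, PSAT1, PSPH, ASNS and SESN2 kept their direction and their call in every alternative run, and so did CHAC1 in every one that tested it; a required mean of at least 50 counts removed CHAC1, which left 2 members called lower. Removing the regional shift changed most of the rest: 4 members were then called higher, ATF4 turned to -0.0735 and SHMT2 stood at 0.0108. In the same setting 1 of the other cytosolic tRNA synthetases was called higher and 4 lower, 4 one-carbon and glycine genes were called lower, and CARS1 (0.21), RARS1 (-0.0841) and VARS1 (-0.15) turned. The cause was not tested. Leaving out each library kept 7 members higher and 3 lower, with ATF4 between 0.21 and 0.24, PHGDH between 0.76 and 0.81 and CHAC1 between -1.92 and -1.78 on the log2 scale; CBS was 8.27 without control replicate 4. The number of all genes called ran from 10279, with a mean of at least 50 counts required, to 15028 without a filter. It was 12453 with a replicate block, which left 7 members higher and 3 lower. Deviations of same-numbered libraries correlated at -0.04 to 0.17, and those of different-numbered ones at -0.12 to 0.07. The labels name no pairing, and a weak shared effect by number was not tested. Ratios without 1 library (smallest possible p 0.0571) or by pairs (0.125) cannot pass 0.05 and were computed as values. CHAC1 rests on 16 to 20 counts in each knockdown library.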
